A study of Bos taurus with 16 samples.

Results

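Oxidative phosphorylation is the last stage of cell respiration, and most of its proteins are encoded in the nucleus. Its nuclear genes were followed here in cattle kidney RNA (Bos taurus) that had or had not been amplified before it was put on a 2-colour cDNA array. The members are the spotted cDNA features whose 1 listed symbol begins with NDUF, UQCR, COX4 to COX8 or ATP5, or is SDHA to SDHD, CYC1 or CYCS. They came to 51 genes, of 4452 genes with a feature of their own on the array, and to 56 features (112 spots, since each clone was printed in duplicate). All 56 had a value in every RNA and entered the tests, with no filter on low values. A further 3 features that list ATP5PB or CYCS beside another gene were left out, so that the electron carrier cytochrome c (CYCS) has no member, and CYC1 had no feature of its own.

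The respiratory chain passes electrons from NADH (through complex I) and from succinate (through complex II) to ubiquinone, then through complex III, cytochrome c and complex IV to oxygen. Complexes I, III and IV pump protons across the inner mitochondrial membrane, and complex V, the ATP synthase, makes ATP as the protons flow back. Kidney tubule cells are rich in mitochondria, since the reabsorption of salt and solutes runs on ATP.

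The kidney RNAs were 2 replicates, named 1 and K, at each of 4 stages: unamplified total RNA, called round 0, and RNA that went through linear amplification, named by its number of rounds (1, 2 or 3). Each of the 8 RNAs was put on 2 arrays, with the dyes exchanged, beside the same reference RNA. Per the labels that reference had gone through 2 rounds of amplification, so only round 0 sets unamplified RNA against amplified RNA. The title of the series presents it as a test of such amplification for single bovine embryos. The labels give no age, sex or treatment of the animals, leave the origin of replicates 1 and K unstated (animals, or amplifications of 1 RNA), and do not name the cells or tissues in the reference.

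Every value below is a log2 ratio, kidney over reference, after each array was centred on its median and the dye swap was averaged, so that 0 is the typical feature of the array and 1 is a 2-fold ratio. Such ratios compare kidney with an unnamed reference and are not levels in kidney. The direction of the ratio is likely rather than stated: it was set so that kidney markers lie above the reference, and 18 features of 11 kidney genes then had medians of 2.13 to 2.96 on the 16 arrays. With the opposite direction all signs below would turn. Of 16896 spots, 14182 to 16057 gave a ratio per array, and the correlation of duplicate spots was 0.541 to 0.868. The p-values are from limma, fitted to the 5537 listed features and adjusted by Benjamini and Hochberg over all of them with a threshold of 0.05, and a feature past it is said to be called. With 2 RNAs per round they measure only the spread between these RNAs, which may be technical, and no exact test of 2 against 2 can pass the threshold.

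Most of the oxidative phosphorylation genes lay near the reference, and more of them moved away from it with amplification. At round 0, 45 of the 56 features (80.4%) were within 0.5 of the reference on the log2 scale, against 44.3% of all tested features. The number within 0.5 was 41 at round 1 and 36 at round 2. By round 3 it was 32, or 57.1%, where 48% of all features were as near. The spread between the members, as the SD of their round means, was 0.42, 0.59, 0.60 and 0.65 at rounds 0 to 3, while that of all tested features was 1.05, 0.99, 0.98 and 0.96.

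Calls against the reference followed the same order. At round 0, limma called 8 of the 56 features, 3 higher and 5 lower in kidney, which is 14.3% where 38.7% of all tested features were called (19.6% higher and 19% lower). At round 1 it called 13, 6 higher and 7 lower (23.2%, against 37.8% of all, 16.9% higher and 20.9% lower). There were 16 calls at round 2, 12 higher and 4 lower (28.6%, against 35.2%), and 18 at round 3, 12 higher and 6 lower (32.1%, against 35.1%). By direction, 16.5% of all features were called higher and 18.6% lower at round 2, and 16.7% higher and 18.4% lower at round 3, beside 21.4% of the members called higher at each. That split depends on the dye and on centring: with kidney in Cy5 only it was 19 higher and 1 lower at round 2 and 22 and 2 at round 3, in Cy3 only 4 and 6, then 5 and 8, and without centring 20 and 0, then 11 and 0. At round 0, 14 were called higher and 0 lower without centring. Over all features, Cy5 only gave 809 higher and 641 lower of 4818 at round 2, then 959 and 765 at round 3. In Cy3 only it was 776 and 1103 of 4936, then 701 and 944. Without centring it was 1489 and 239 of 5537 at round 2, then 885 and 337, and 1782 and 192 at round 0. The uncentred counts are thus not read as particular to the members. Only COX7A2 was called on 1 side at all 4 rounds, and that was lower, while 6.63% of all features were called higher and 7.89% lower at every round. Since whole kidney RNA was measured, fewer cells of a type and less RNA per cell cannot be told apart in any of these ratios.

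The heat map of the 56 features in the 8 RNAs shows the amplified RNAs to be more like each other than like round 0. Across the 56 round means, Pearson's r was 0.839 between rounds 1 and 2, 0.695 between rounds 1 and 3 and 0.877 between rounds 2 and 3, but 0.290, 0.371 and 0.418 between round 0 and rounds 1, 2 and 3. Over all tested features the correlations between the amplified rounds were alike, at 0.827, 0.717 and 0.834, and those with round 0 were 0.583, 0.597 and 0.575. Replicates 1 and K correlated over the members at 0.315 at round 0, 0.538 at round 1, 0.720 at round 2 and 0.873 at round 3, and over all features at 0.814, 0.735, 0.754 and 0.723. All of these are across features that share the reference RNA and the arrays, and with the narrow range of the members at round 0 they are a description only.

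**Figure D1:**
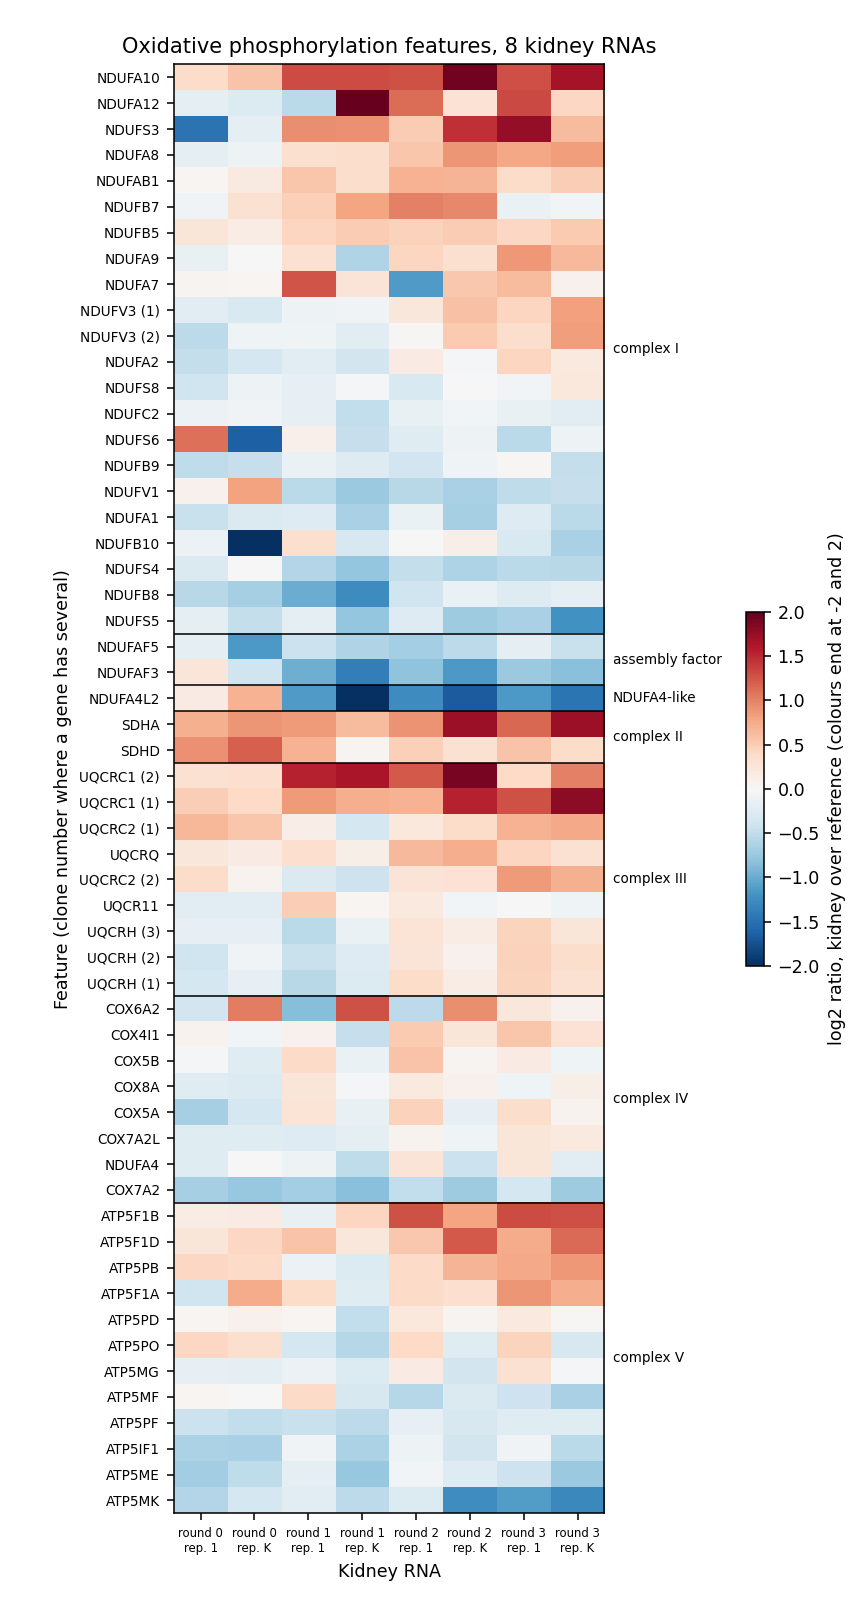
Log2 ratio of kidney over reference for the 56 oxidative phosphorylation features (rows, grouped by respiratory complex and sorted by their mean) in the 8 kidney RNAs (columns, rounds 0 to 3, replicates 1 and K). Red is above and blue below the reference, with colours ending at -2 and 2. NDUFA10, SDHA and UQCRC1 are red in all 8 RNAs, COX7A2 is blue in all 8, and NDUFA4L2 is red at round 0 and blue at the other rounds.

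The median of the 56 features was -0.14 at round 0, -0.17 at round 1, 0.15 at round 2 and 0.19 at round 3, while that of all tested features stayed between -0.02 and 0.04. The number of features above 0 was 23, 23, 34 and 36. Relative to round 0 the median difference was 0.02 at round 1 (29 features up and 27 down), 0.29 at round 2 (42 up and 14 down) and 0.31 at round 3 (42 up and 14 down), and over all features it was -0.03, 0.01 and 0.00. These sizes depend on centring the arrays. Without it the medians were -0.99, 0.20 and -0.05, beside -1.04, -0.08 and -0.34 for all features. At rounds 0 and 1 the median level of the members was below that of all features, centred or not. Their median differences from round 0 lay above those of all features with and without centring. Since centring takes 1 value from every feature of an array, that likeness is built in and is no added support. The kidney marker list had medians of 2.42, 2.72, 2.80 and 2.34 at rounds 0 to 3. Its median differences from round 0 were -0.25, -0.25 and -0.38 at rounds 1, 2 and 3. The part of that list in the members' course was not tested.

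Few single features passed the test of change. At round 1 against round 0, 2 of 56 were called (3.57%, against 13.3% of all features, 5.4% higher and 7.87% lower), UQCRC1 higher and NDUFA4L2 lower. At round 2 against round 0 it was 2 (3.57%, against 11.2% of all, 4.39% higher and 6.79% lower), NDUFA8 higher and NDUFA4L2 lower. In the comparison of round 3 with round 0 it was 3 (5.36%, against 11.6% of all, 4.57% higher and 7.04% lower), NDUFA8 and ATP5F1B higher and NDUFA4L2 lower. The moderated F test over all rounds called NDUFA4L2 alone (1.79%, against 7.59% of all). At an unadjusted p under 0.05 there were 13, 13 and 15 of 56 features at rounds 1, 2 and 3 (23.2%, 23.2% and 26.8%, against 31.8%, 30.9% and 31.6% of all). The values of both replicates lay wholly above or wholly below those of round 0 for 25, 39 and 42 of the 56 (44.6%, 69.6% and 75%, against 64%, 64.3% and 65.1% of all). The calls rest on few RNAs: with 1 of the 8 left out, the number of members called was 0 to 2 at round 1, 0 to 1 at round 2 and 0 to 2 at round 3, and it was 0 at each when the round 1, replicate 1, Cy3 array was dropped. With all 16 arrays as samples and a dye term it was 9, 10 and 11 of the 56 members. Of all 5537 features, 493, 504 and 568 were then called higher and 796, 740 and 754 lower. That fit allows for a correlation between the 2 arrays of an RNA, with 1 value shared by all features. It still rests on 2 RNAs per round.

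The upward course was larger in one dye than in the other, as the plot of the median on each array shows. With kidney in Cy5, the median difference from round 0 was 0.31, 0.55 and 0.40 at rounds 1, 2 and 3, with 40, 43 and 45 of the 56 features up. With kidney in Cy3 it was -0.31, 0.10 and 0.17, with 17, 31 and 33 features up. Over all features it was 0.01, 0.01 and 0.02 in Cy5 and -0.11, -0.06 and -0.05 in Cy3. The median difference of the members was thus of opposite sign in the dyes at round 1 and above 0 in both at rounds 2 and 3. The median level did not follow in Cy3, where it was -0.28 at round 2 and -0.13 at round 3, against -0.08 at round 0, while in Cy5 it was 0.58 and 0.45, against 0.01.

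**Figure D2:**
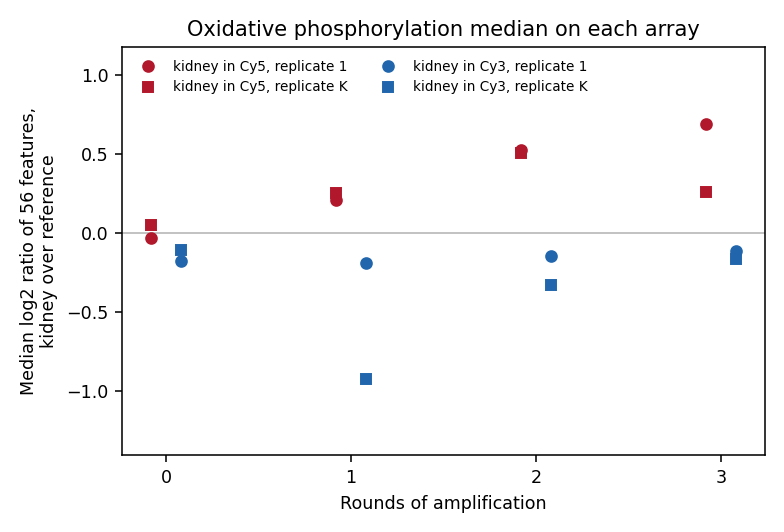
Median log2 ratio of the 56 features on each of the 16 arrays, by round of amplification (x axis) and by the dye of the kidney RNA (colour) and replicate (circle for 1, square for K). The 4 arrays of round 0 lie between -0.18 and 0.05, while at rounds 1 to 3 every Cy5 array lies above 0 and every Cy3 array below it, down to -0.92 for round 1, replicate K.

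The gap between the dyes was itself a feature of the amplified RNAs. The median of Cy5 minus Cy3 over the members was 0.06 and 0.23 in the RNAs of round 0 (replicates 1 and K), 0.55 and 1.25 at round 1, 0.73 and 0.74 at round 2, and 0.86 and 0.56 at round 3. Over all features it was at most 0.45 in any RNA. At round 3, 29 of the 56 features were higher than at round 0 in both dyes, 7 were lower in both, and 20 moved apart; at round 1 the numbers were 11, 10 and 35. The members that moved one way in both dyes were 37.5%, 60.7% and 64.3% at rounds 1, 2 and 3, against 59%, 62.2% and 61.8% of all features. The part of dye in the course of the members was not tested beyond these values.

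Taken by complex, the medians separated complex II, above the reference at every round, from complexes I, III, IV and V, whose medians were between -0.24 and 0.41. The complex I median (22 features of 21 genes) was -0.24, -0.12, 0.07 and 0.20 at rounds 0 to 3. Complex III (9 features of 5 genes) had 0.19, -0.11, 0.27 and 0.41, complex IV (8 features) had -0.19, -0.07, 0.15 and 0.10, and complex V (12 features) had 0.03, -0.21, -0.01 and 0.09. The plot of medians by complex also shows the replicates, which lay apart by as much as their rounds did in complex V, with 0.19 in replicate 1 and -0.25 in replicate K at round 2.

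**Figure D3:**
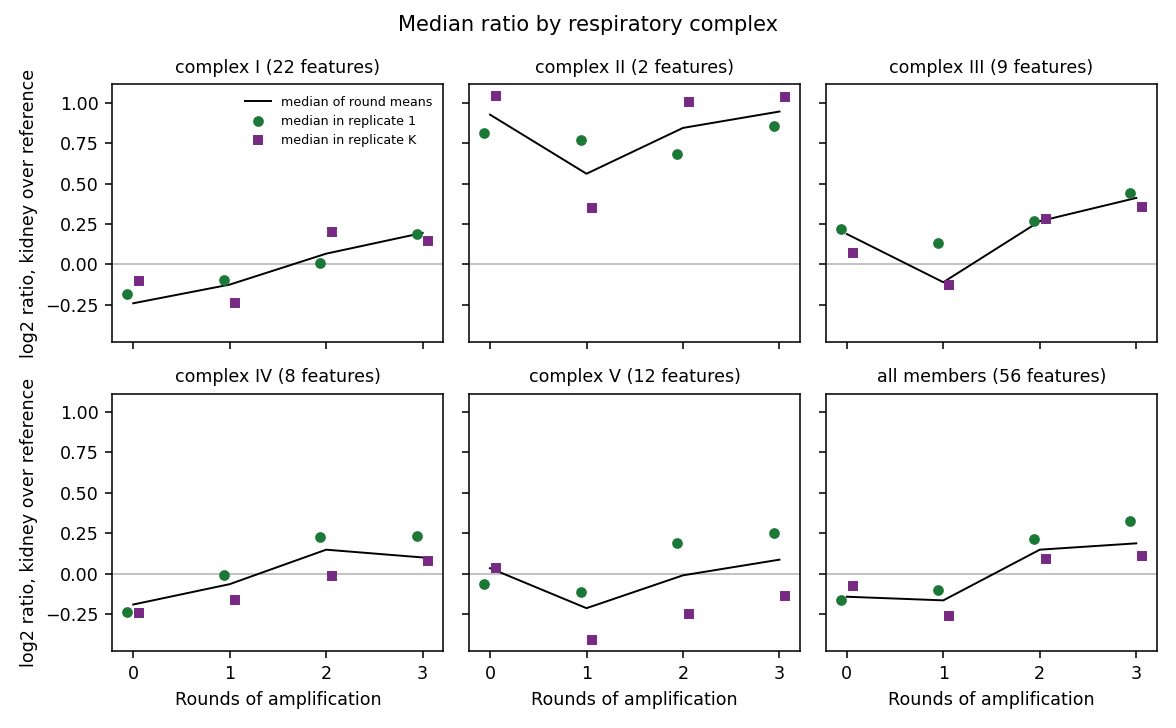
Median log2 ratio of kidney over reference (y axis) by round of amplification (x axis) for each respiratory complex and for all 56 features. The line joins the medians of the round means, and circles and squares are the medians in replicates 1 and K. Complex II is above 0 in all 8 RNAs, and the complex I line goes up at each round, through -0.24, -0.12, 0.07 and 0.20.

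Complex I takes electrons from NADH through the flavoprotein NDUFV1 and a row of iron-sulphur proteins such as NDUFS3 and NDUFS8, around which many accessory subunits sit. Its features called against the reference were 0 higher and 1 lower at round 0, then 4 and 3 at round 1, 5 and 1 at round 2, and 5 and 2 at round 3, of 22. Over all features 16.5% to 19.6% were called higher and 18.4% to 20.9% lower at a round, so these counts are not read as particular to the complex. NDUFA10, an accessory subunit, stood highest on average. Its log2 ratios were 0.37 and 0.57 at round 0 (replicates 1 and K), 1.31 and 1.30 at round 1, 1.28 and 1.92 at round 2 and 1.30 and 1.66 at round 3. The 6 amplified RNAs were all above the RNAs of round 0. It was called higher than the reference at rounds 1, 2 and 3 (limma adjusted p = 0.00355, 0.00176 and 0.00249), and its differences from round 0 of 0.83 (SE 0.28), 1.13 and 1.01 did not pass (adjusted p = 0.0999, 0.0522 and 0.0681).

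NDUFA8, an accessory subunit of the membrane arm, was the complex I gene whose change passed. It had -0.19 and -0.10 at round 0, 0.32 and 0.35 at round 1, 0.56 and 0.88 at round 2 and 0.78 and 0.83 at round 3. The rounds did not overlap with round 0, and the mean was higher at each round than at the one before. It rose by 0.86 (SE 0.20, adjusted p = 0.0461) at round 2 and by 0.95 (adjusted p = 0.0362) at round 3. Both calls were lost without any 1 of the 8 RNAs (adjusted p of 0.0511 to 0.142 at round 3), although the 4 arrays of round 3 were above the 4 of round 0, with 1.20 and 1.16 in Cy5 and 0.36 and 0.50 in Cy3 against -0.24 to -0.04.

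Other complex I features stood above the reference without a called change. NDUFAB1, the mitochondrial acyl carrier protein, had 0.04 and 0.18 at round 0, 0.55 and 0.35 at round 1, 0.70 and 0.68 at round 2, and 0.36 and 0.48 at round 3, and was called higher at rounds 1 and 2. NDUFB5 of the membrane arm was within 0.14 and 0.53 in all 8 RNAs and was called higher at rounds 1, 2 and 3. NDUFB7, also of the membrane arm, had -0.07 and 0.31 at round 0, 0.47 and 0.79 at round 1, 1.01 and 0.96 at round 2, and -0.14 and -0.05 at round 3. It was called higher at rounds 1 and 2, and its round 3 values were as low as those of round 0. NDUFA9, an accessory subunit, had 0.87 and 0.64 at round 3, where it was called higher, against -0.15 and 0.01 at round 0.

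The genes below the reference included the flavoprotein itself. NDUFV1 had 0.09 and 0.80 at round 0, -0.54 and -0.74 at round 1, -0.56 and -0.65 at round 2 and -0.51 and -0.46 at round 3. The amplified RNAs were all below those of round 0, and the difference at round 1, -1.09 (SE 0.28), missed the threshold at an adjusted p of 0.051. Against the reference it was called lower at round 1. NDUFS4, an accessory subunit of the NADH-binding arm, was between -0.78 and -0.47 in the amplified RNAs, against -0.28 and -0.01 at round 0, and was called lower than the reference at rounds 1, 2 and 3. NDUFB8 of the membrane arm had -0.55 and -0.66 at round 0, -0.99 and -1.25 at round 1, -0.40 and -0.14 at round 2 and -0.26 and -0.17 at round 3. It was called lower at rounds 0 and 1 and was lowest at round 1 in both replicates. Its dye orientations differed by 1.02 on average, and at round 0 its arrays gave -0.97 and -1.35 in Cy3 but -0.13 and 0.03 in Cy5. NDUFS5, another membrane arm subunit, had a mean of -0.93 ± 0.39 (SD, n = 2) at round 3, where it was called lower, against -0.34 ± 0.19 at round 0.

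NDUFV3, a small subunit next to NDUFV1, was spotted as 2 clones that gave nearly the same course. Clone 1 had -0.22 and -0.30 at round 0, -0.10 and -0.08 at round 1, 0.23 and 0.58 at round 2 and 0.43 and 0.82 at round 3. Clone 2 had -0.52 and -0.08, -0.09 and -0.22, 0.02 and 0.52, and 0.35 and 0.83 at the same rounds. The clones differed by at most 0.13 in their round means, and neither change from round 0 passed (0.89 for both at round 3, adjusted p = 0.0598 and 0.0971). Against the reference, clone 1 was called higher at round 3.

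A few complex I features were poorly measured, and their means are given with that limit. NDUFS3 had 1.76 and 0.63 at round 3, against -1.48 and -0.20 at round 0, and its dye orientations differed by 1.33 on average. NDUFA12 had 2.87 at round 1, replicate K, from 1 array only, against -0.54 in replicate 1. NDUFB10 had -2.29 at round 0, replicate K, because 1 array gave -4.64 and the other 0.06. NDUFS6 was between -0.54 and 0.10 in the amplified RNAs, against 1.10 and -1.64 at round 0, each from 1 array. None of these was called at any round or in any comparison.

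The largest called change among the members was that of NDUFA4L2, a relative of the complex IV subunit NDUFA4 that is known in human and mouse cells as a gene induced by low oxygen. It had 0.17 and 0.69 at round 0, -1.14 and -1.99 at round 1, -1.25 and -1.66 at round 2, and -1.15 and -1.46 at round 3. All 6 amplified RNAs were below the reference and below both RNAs of round 0, which were above it. Its log2 differences from round 0 were -1.99 (SE 0.36, adjusted p = 0.0231) at round 1, -1.88 (adjusted p = 0.0292) at round 2 and -1.73 (adjusted p = 0.0342) at round 3, so that it fell in all 3 comparisons. No pair of amplified rounds differed by the test, with adjusted p of 0.948, 0.712 and 0.954. Without round 0 replicate 1 the adjusted p was 0.061 to 0.0811 over the 3 comparisons, and without replicate K 0.105 to 0.144. The calls of rounds 2 and 3 were also lost without any 1 RNA of those rounds (0.0506 to 0.138), and that of round 1 without its replicate K (0.084). The plot of the called features by array shows the fall in both dyes, with -1.20 to -0.50 in Cy5 and -2.78 to -1.59 in Cy3 at rounds 1 to 3. NDUFA4 was between -0.50 and 0.25 in all 8 RNAs; the difference between the courses of the 2 genes was not tested.

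**Figure D4:**
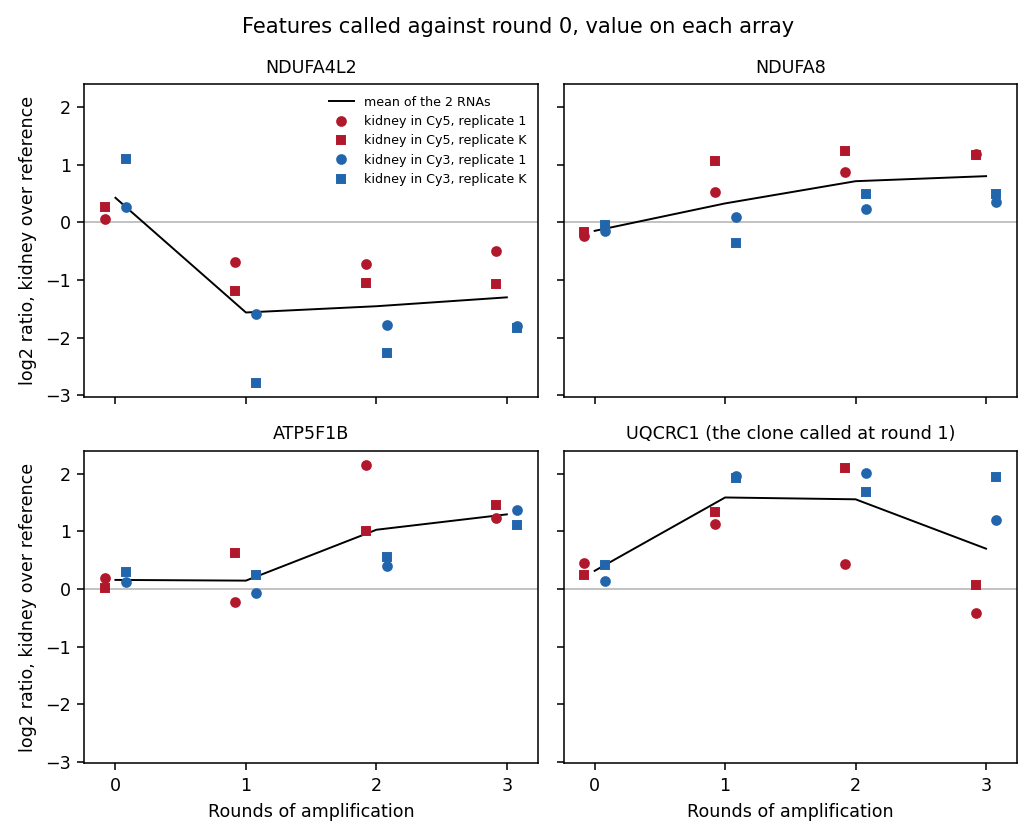
Log2 ratio on each of the 16 arrays (y axis) by round of amplification (x axis) for the 4 features called against round 0. Colour gives the dye of the kidney RNA, shape the replicate, and the line joins the round means over the RNAs. NDUFA4L2 lies below 0 on all 12 arrays of rounds 1 to 3, and the Cy5 and Cy3 arrays of UQCRC1 part at round 3.

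The 2 assembly factors on the array, which help to build complex I and are not part of it, were both below the reference on average. NDUFAF3 had 0.24 and -0.40 at round 0 (each from 1 array), -0.98 and -1.39 at round 1, -0.81 and -1.15 at round 2 and -0.74 and -0.83 at round 3. It was called lower than the reference at rounds 1, 2 and 3, and the difference at round 1 of -1.10 (SE 0.30) did not pass (adjusted p = 0.0581). NDUFAF5 was between -0.68 and -0.19 at the later rounds, against -0.18 and -1.15 at round 0, and was not called.

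Complex II, which is also succinate dehydrogenase of the citric acid cycle, was represented by SDHA and SDHD, and both were above the reference in all 8 RNAs. SDHA, the catalytic flavoprotein, had 0.70 and 0.88 at round 0, 0.85 and 0.64 at round 1, 0.89 and 1.71 at round 2 and 1.14 and 1.71 at round 3. SDHD, a membrane anchor, had 0.92 and 1.20 at round 0, 0.69 and 0.06 at round 1, 0.47 and 0.31 at round 2 and 0.56 and 0.37 at round 3. The 2 subunits were thus alike at round 0 and apart at round 3. SDHA was called higher at rounds 0, 2 and 3 (adjusted p = 0.0415, 0.00785 and 0.0057) and SDHD at round 0 alone (adjusted p = 0.00723). Neither differed from round 0 by the test: SDHA by 0.63 (SE 0.34) and SDHD by -0.60 (SE 0.27) at round 3, with adjusted p = 0.257 and 0.196.

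Complex III was the complex with most repeated clones, 7 of its 9 features belonging to UQCRC1, UQCRC2 and UQCRH. UQCRH, the hinge protein that meets cytochrome c1, was spotted 3 times. Clone 1 had -0.35 and -0.16 at round 0, -0.55 and -0.27 at round 1, 0.37 and 0.15 at round 2 and 0.44 and 0.30 at round 3. The round means of the 3 clones differed by at most 0.09, and each was below 0 in both RNAs of rounds 0 and 1 and above 0 in both RNAs of rounds 2 and 3. That holds for the average of the dyes. At rounds 2 and 3 the arrays of the 3 clones gave 0.50 to 1.01 in Cy5 and -0.33 to 0.015 in Cy3. The clones share these arrays, and the part of dye in their course was not tested. None was called at any round or change, and the clones had adjusted p of 0.107, 0.0989 and 0.177 at round 3 against round 0.

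UQCRC2, a core protein, also gave a like course from 2 clones. Clone 1 had 0.66 and 0.55 at round 0, 0.13 and -0.35 at round 1, 0.21 and 0.37 at round 2 and 0.70 and 0.76 at round 3. Clone 2 had 0.37 and 0.07, -0.29 and -0.41, 0.25 and 0.28, and 0.85 and 0.71 at the same rounds. Both clones were lowest at round 1 and were called higher than the reference at round 3 (adjusted p = 0.0163 and 0.00845), clone 1 at round 0 as well (adjusted p = 0.0296). Round 3 against round 1 gave 0.84 for clone 1 and 1.13 for clone 2 (SE 0.21), with adjusted p = 0.127 and 0.069.

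UQCRC1, the other core protein, is where the clones parted. Clone 2 had 0.30 and 0.33 at round 0, 1.54 and 1.64 at round 1, 1.22 and 1.90 at round 2 and 0.39 and 1.01 at round 3. Clone 1 had 0.49 and 0.40 at round 0, 0.85 and 0.73 at round 1, 0.70 and 1.53 at round 2 and 1.28 and 1.79 at round 3. Clone 2 was thus higher at round 1 and clone 1 at round 3, by 0.80 and 0.84 in their means. Clone 2 rose by 1.28 at round 1 (SE 0.31, adjusted p = 0.0464), while clone 1 differed by 0.35 at round 1 and by 1.09 at round 3 (adjusted p = 0.509 and 0.08). The round 1 call of clone 2 was lost without any 1 of the 8 RNAs (adjusted p of 0.0508 to 0.162), and at round 3 its arrays gave -0.41 and 0.06 in Cy5 against 1.20 and 1.95 in Cy3. Against the reference, clone 1 was called higher at rounds 1, 2 and 3 and clone 2 at rounds 1 and 2.

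**Figure D5:**
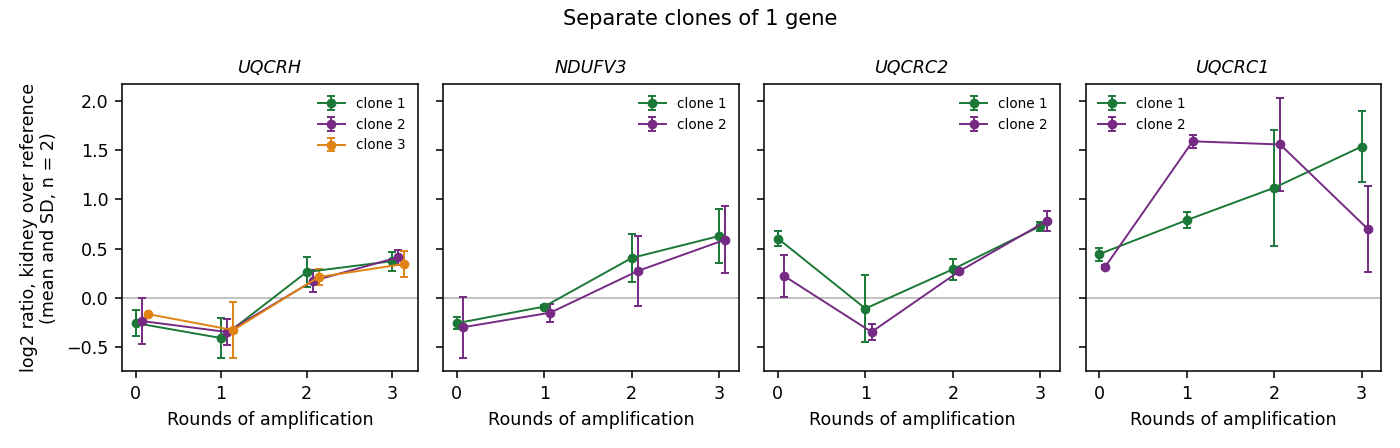
Mean log2 ratio of kidney over reference with SD (n = 2 RNAs) by round of amplification for genes spotted as separate clones. The clones of UQCRH and of NDUFV3 lie on each other, those of UQCRC2 differ by 0.05 at round 3 and by 0.38 at round 0, and those of UQCRC1 cross.

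The clone plot covers 6 pairs of features of 1 gene. Their median difference in size was 0.08, 0.07, 0.07 and 0.05 at rounds 0 to 3, where 1297 such pairs of 905 genes on the array had 0.42, 0.61, 0.52 and 0.51. Several of the 6 pairs are of UQCRH, and the largest differences were 0.38, 0.80, 0.44 and 0.84. The members also span a narrower range than all features (SD 0.42 against 1.05 at round 0), so the contrast is a description only. The remaining complex III genes were small subunits. UQCRQ was above the reference in all 8 RNAs, between 0.12 and 0.73, and was called higher at round 2 with 0.65 and 0.73. UQCR11 lay between -0.22 and 0.49 and was not called.

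Complex IV, which passes electrons to oxygen, had 1 of its 8 features called against the reference at each round, where 35.1% to 38.7% of all features were called. That feature was COX7A2, the form of subunit VIIa found in most tissues. It had -0.66 and -0.76 at round 0, -0.69 and -0.84 at round 1, -0.50 and -0.71 at round 2 and -0.35 and -0.71 at round 3. It was below the reference in all 8 RNAs by a similar amount (limma adjusted p = 0.014, 0.0109, 0.0255 and 0.0412), and its change from round 0 was at most 0.18. That holds for the average of the dyes. At rounds 1 to 3 its arrays gave -1.49 to -0.83 in Cy3 and -0.54 to 0.18 in Cy5. The related COX7A2L, which joins complexes III and IV, was 0.24 and 0.19 at round 3, against -0.24 and -0.25 at round 0, and was not called.

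The other common subunits stayed close to the reference. COX4I1, the form of subunit IV found in most tissues, had 0.55 and 0.28 at round 3, against 0.07 and -0.05 at round 0. COX5A was between -0.17 and 0.47 at the later rounds, against -0.66 and -0.35 at round 0. COX5B lay between -0.24 and 0.57, and COX8A between -0.28 and 0.24. No call was made for any of the 4. COX6A2, the heart and skeletal muscle form of subunit VIa, was the most poorly measured member. Its dye orientations differed by 2.16 on average, the largest gap among the 56 features, and replicates 1 and K were -0.86 and 1.27 at round 1. Of the muscle markers looked up only DES was tested, with 2 features whose median was -1.06 at round 3, against 0.03 at round 0, and its part in COX6A2 was not tested.

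In complex V, ATP5F1B, ATP5F1D and ATP5PB were called higher than the reference at rounds 2 and 3, and several small subunits lay below it. ATP5F1B, the catalytic beta subunit, had 0.16 and 0.16 at round 0, -0.15 and 0.44 at round 1, 1.28 and 0.78 at round 2 and 1.31 and 1.28 at round 3. The RNAs of rounds 2 and 3 were all above those of rounds 0 and 1. It rose by 1.14 at round 3 against round 0 (SE 0.28, adjusted p = 0.0497). The change was still called without either RNA of round 1 (adjusted p = 0.0471 without replicate 1 and 0.047 without replicate K) and not without any 1 of the other RNAs (0.0597 to 0.166).

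ATP5F1D, the delta subunit of the central stalk, had 0.24 and 0.41 at round 0, 0.57 and 0.22 at round 1, 0.53 and 1.22 at round 2 and 0.74 and 1.14 at round 3. ATP5PB, of the peripheral stalk, had 0.41 and 0.39 at round 0, -0.11 and -0.27 at round 1, 0.38 and 0.68 at round 2 and 0.76 and 0.87 at round 3. Both were highest at round 3 by their means, and neither change from round 0 passed. ATP5F1A, the alpha subunit, had 0.88 and 0.73 at round 3, against -0.40 and 0.75 at round 0, and was not called.

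Below the reference lay the small membrane subunits ATP5MK and ATP5ME, the peripheral stalk subunit ATP5PF and ATP5IF1, the inhibitor that stops the enzyme from splitting ATP. ATP5MK had -0.58 and -0.34 at round 0, -0.20 and -0.52 at round 1, -0.28 and -1.24 at round 2, and -1.12 and -1.29 at round 3, where it was called lower (adjusted p = 0.0111). ATP5ME, ATP5IF1 and ATP5PF had means of -0.58, -0.30 and -0.24 at round 3 without a call, against -0.60, -0.64 and -0.46 at round 0, where each was called lower. ATP5PF was called lower at round 1 too. Of the rest, ATP5PO had -0.35 and -0.57 at round 1, against 0.42 and 0.31 at round 0. ATP5PO, ATP5PD, ATP5MF and ATP5MG were not called at any round.

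Between the amplified rounds no member was called, while 0.289% of all features were, all of them lower at round 3 than at round 1. At an unadjusted p under 0.05 there were 6 of 56 members at round 2 against round 1 (10.7%, against 10.3% of all), 15 at round 3 against round 1 (26.8%, against 21.2%) and 3 at round 3 against round 2 (5.36%, against 7.24%). The median difference of the members at round 2 against round 1 was 0.22 (45 up and 11 down), where that of all features was 0.042. At round 3 against round 1 it was 0.22 (40 up and 16 down), against 0.055 for all features. At round 3 against round 2 it was 0.07 (32 up and 24 down), close to the 0.055 of all features. The lowest adjusted p in the 3 comparisons were 0.323 for NDUFB8, 0.069 for UQCRC2 and 0.498 for NDUFB7. ATP5F1B had the largest increase at round 3 over round 1, 1.15, and clone 2 of UQCRC1 the largest decrease, -0.89.

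Some courses of the round means were counted, and these do not cover all of the 56 features. The mean was higher at each round than at the one before for 9 features (16.1%, against 10.2% of all): ATP5F1D, COX5A, COX7A2L, NDUFA2, NDUFA8, NDUFS3, both clones of NDUFV3 and clone 1 of UQCRC1. It was lower at each round for 2 (3.57%, against 7.33%), COX6A2 and NDUFS5. A course lowest at round 1 among rounds 0 to 2, and higher at round 3 than at round 2, was found for 19 (33.9%, against 22.6%). It was picked out after the values were seen. Among the 19 were both clones of UQCRC2, the 3 of UQCRH, ATP5PB and NDUFB8. The rule asks for no return to round 0: NDUFA4L2, NDUFV1, NDUFAF3 and SDHD, also among the 19, were still below it at round 3. These courses are of means over both dyes. At round 1 the median difference of the 56 features from round 0 was -0.31 in Cy3 and 0.31 in Cy5. The part of dye in these courses was not tested.

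The genes around the chain were looked up as well. Of 46 tested features of 39 genes for assembly, electron carriers, carriers of nucleotides and phosphate and regulators of mitochondrial biogenesis, 2, 1 and 3 were called higher than round 0 at rounds 1, 2 and 3, and 3, 5 and 8 lower. Over all features 5.4%, 4.39% and 4.57% were called higher and 7.87%, 6.79% and 7.04% lower. The median of the 46 was 0.24, 0.17, 0.25 and 0.14 at rounds 0 to 3. No mitochondrially encoded gene had a feature, so the nuclear subunits could not be set beside their mitochondrial partners.

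The carriers that feed the ATP synthase parted. SLC25A3, the phosphate carrier, had 0.07 and 0.14 at round 0, -1.02 and -1.46 at round 1, -1.21 and -1.57 at round 2 and -1.17 and -1.47 at round 3. It fell by 1.34 at round 1, by 1.49 at round 2 and by 1.42 at round 3 (adjusted p = 0.0264, 0.022 and 0.0257). SLC25A6, an exchanger of ADP and ATP, had -1.48 and -1.32 at round 0, -0.16 and -0.52 at round 1, -0.19 and 0.18 at round 2 and 0.06 and 0.28 at round 3. It rose by 1.07, 1.40 and 1.58 (adjusted p = 0.0402, 0.0226 and 0.018). At round 3 its relative SLC25A5 rose by 0.86 (adjusted p = 0.047) and 1 of the 2 features of VDAC2, a channel of the outer membrane, by 0.95 (adjusted p = 0.0311).

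Of the regulators (13 features of 9 genes), 1, 4 and 5 were called lower than round 0 at rounds 1, 2 and 3 and 0 higher, where 7.87%, 6.79% and 7.04% of all features were called lower and 5.4%, 4.39% and 4.57% higher. Their median was 0.98, 0.43, 0.16 and -0.27 at rounds 0 to 3. POLRMT, the mitochondrial RNA polymerase, was between -0.79 and 0.04 in the amplified RNAs, against 1.75 and 1.56 at round 0, and it fell by 2.21, 2.02 and 1.68 (adjusted p = 0.00756, 0.00974 and 0.0137). HIF1A, which with EPAS1 carries the response to low oxygen, fell by 1.21 and 1.25 at rounds 2 and 3 (adjusted p = 0.0403 and 0.0377), and EGLN1, the enzyme that marks both for breakdown in normal oxygen, fell by 0.82 and 0.99 (adjusted p = 0.0456 and 0.0304). The 5 EPAS1 features parted at round 3, with 2 at 2.08 and 2.18 and 3 at -1.13 to -0.41, against 1.80 to 2.30 for all 5 at round 0; 2 of the lower 3 were called lower than round 0 at round 3.

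Among assembly factors, COX17, a copper carrier for complex IV, fell by 0.90 at round 1 and by 0.96 at round 3 (adjusted p = 0.0438 and 0.0394), and ECSIT of complex I rose by 1.46 at round 1 (adjusted p = 0.032). COQ10B, a ubiquinone-binding protein, fell by 1.63 at round 3 (adjusted p = 0.0396). GABPB1, a subunit of a regulator of these genes, was called by the F test (adjusted p = 0.0471), with -0.01 and -0.16 at round 3, against 1.45 and 2.15 at round 1. Beside EPAS1 and SLC25A3, the features farthest from the reference by their mean over all rounds were COQ9 of ubiquinone synthesis at 1.32 and, below it, SSBP1 and COA7 at -0.75 and -0.74.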

How the data were processed

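Per the labels' protocols, RNA was isolated with Trizol, reverse-transcribed with amino-allyl dUTP and coupled to Cy3 or Cy5. The deposited values are log2 ratios of the 2 channels. In 1 array (round 1, replicate 1, Cy3) the deposited ratios stand beside 52 numbers of another kind, and the unit of that whole deposited column was recorded as a score. Up to a size of 10 its numbers entered as log2 ratios, as on the other arrays. How the authors read the images, corrected background or normalized is not given in the sources used here. Numbers beyond 10 in size, among them a recurring code for an undefined ratio, were taken as missing. No intensities were used, so dim spots could not be filtered, and precision is limited by how many arrays there are.

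Duplicate spots were averaged (8448 features), arrays with kidney in Cy3 were turned in sign (deposited dye swaps correlated at -0.601 to -0.195), arrays were centred on the median of the 5693 features with a listed gene, and both dyes of an RNA were averaged; 5 of 448 member values came from 1 dye. Symbols are from the platform's annotation, and the identifiers of all 56 members carry the same symbols in a current gene table. No positions are given because the files name no genome build.

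limma 3.58.1 in R 4.3.3 (data.table version 1.17.8) was run with lmFit and eBayes on 8 RNAs with a mean per round, 4 residual and 2.4 prior degrees of freedom; tests are two-sided. Replicate names, which the labels carry through all rounds, were not used to pair samples in the main fit. Residuals correlated above 0.1 in 1 of 6 pairs of rounds (0.169 for rounds 2 and 3). Low correlations do not show that the samples are unpaired, and the replicate block is given as an alternative. The method was tested on simulated data.

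The members, the gene lists and the tests were chosen with earlier results of these data known. By the naming rule, the text names every member called in a comparison of rounds, all of complexes II and III and the ones apart, the 4 farthest each way in complexes I, IV and V, repeated clones and tissue isoforms; of the other pathway genes it names those called and the 3 farthest each way. The alternatives tried were other centring and scaling, each dye alone, 16 arrays with a dye term, both dyes or both spots required, a limit of 6, all features, genes averaged, only the rounds compared, the replicate block, and leaving out each RNA or 1 array.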

Additional observations from a re-analysis of the deposited data

How the results depend on the processing

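The 2 RNAs per round set the limit of what could be called. How many of all features were called also changed with the setting, so counts of members alone are not read as particular to them. The counts below are of members called, out of 56, against the reference at rounds 0, 1, 2 and 3 and then against round 0 at rounds 1, 2 and 3 (main setting 8, 13, 16 and 18, then 2, 2 and 3). They were 14, 6, 20 and 11, then 12, 0 and 0 without centring; 7, 11, 17 and 17, then 2, 1 and 3 centred on all features; 10, 11, 17 and 19, then 1, 5 and 4 with arrays scaled to 1 spread; 10, 17, 20 and 25, then 9, 10 and 11 with 16 arrays and a dye term; 5, 11, 20 and 24, then 0, 1 and 4 with kidney in Cy5 only; 5, 22, 10 and 13, then 5, 3 and 1 with kidney in Cy3 only; 11, 13, 17 and 23, then 3, 6 and 9 with both dyes required; 11, 14, 19 and 23, then 5, 6 and 6 with both spots required; 5, 10, 16 and 16, then 1, 1 and 2 with all features in the fit; 7, 13, 16 and 17, then 2, 3 and 3 with features of a gene averaged; and 2, 12, 13 and 14, then 0, 0 and 0 without the round 1, replicate 1, Cy3 array. With only the rounds compared in the fit they were 0, 0 and 0 against round 0, where the construction leaves 2 residual degrees of freedom, and a limit of 6 changed none. The replicate block gave 8, 13, 17 and 19, then 3, 3 and 2, and F test 0; the block ended the calls of ATP5F1B at round 3 (adjusted p = 0.071) and NDUFA8 at round 2 (0.0568). With each RNA left out in turn they were 0 to 7, 4 to 11, 3 to 16 and 2 to 19, then 0 to 2, 0 to 1 and 0 to 2, and the F test called 0. Members called between amplified rounds (0 in the main setting) were 8 with 16 arrays, 2 with both dyes required and 1 with both spots required; members called by the F test (1) were 14, 7 and 5 in the same settings, and 0 with all-feature centring, in Cy5 only, with all features in the fit and without the 1 array. The median differences from round 0 (0.02, 0.29 and 0.31) were -0.99, 0.20 and -0.053 without centring, 0.33, 0.55 and 0.38 in Cy5 only, -0.28, 0.10 and 0.19 in Cy3 only, 0.12 and 0.13 at round 1 with scaled arrays and without the 1 array, and -0.03 at round 1 with all-feature centring; with each RNA left out they were -0.04 to 0.15, 0.29 to 0.34 and 0.25 to 0.36. Single values turned in sign without centring for ATP5IF1 (0.033), ATP5ME (0.075), ATP5PF (0.22) and NDUFB8 (0.070) at round 0 and NDUFS4 (0.031) at round 2, and in Cy3 only for NDUFB5 (-0.13) at round 1. The cause of these changes was not tested.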
